A study of Mus musculus with 34 samples.

Results

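The 7 globin genes described here are the embryonic β-like genes *Hbb-y* and *Hbb-bh1*, the adult β-like genes *Hbb-bs* and *Hbb-bt*, the embryonic α-like gene *Hba-x* and the adult α-like genes *Hba-a1* and *Hba-a2*. They were taken by gene symbol from an RNA-seq table of 22040 genes and were chosen by their FPKM in these 6 libraries, so the levels, folds and ratios of the 7 genes are given as a description, without a test. The libraries came from mouse limb buds at E11.5, with 3 biological replicates of WT embryos and 3 of CKO embryos. CKO embryos were Prrx1-Cre; Hnrnpk fl/fl, and the labels call the other group Hnrnpk WT without further alleles. Prrx1-Cre is active in the mesenchyme of the limb bud and is used to delete genes there rather than in blood cells. Embryos of both sexes were used, the strain is not given in the sources used here, and neither is the number of embryos per library. Total RNA from limb bud cells was made into stranded mRNA libraries, and no step that removes blood or globin transcripts is described in the sources used here.

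Hemoglobin is a tetramer of α-like and β-like chains, each of which holds a haem. In the mouse, red cells made first in the yolk sac, the primitive lineage, express *Hba-x* (ζ), *Hbb-bh1* (βH1) and *Hbb-y* (εy) as well as adult α globin, and they circulate as nucleated cells while the limb bud forms. Red cells of the fetal liver, the definitive lineage, express mainly the adult genes and enter the blood later in gestation. During maturation of primitive cells the main β-like globin shifts from *Hbb-bh1* to *Hbb-y*, and the main α-like globin shifts from *Hba-x* to *Hba-a1* and *Hba-a2*.

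On GRCm38 the β-like genes lie on the minus strand of chromosome 7, with *Hbb-bt* at chr7:103812524-103813996, *Hbb-bs* at chr7:103826534-103828096, *Hbb-bh1* at chr7:103841637-103843164 and *Hbb-y* at chr7:103851749-103853216. The α-like genes lie on the plus strand of chromosome 11, with *Hba-x* at chr11:32276400-32278116, *Hba-a1* at chr11:32283511-32284465 and *Hba-a2* at chr11:32296489-32297298. In both clusters the genes run from embryonic to adult in the direction of transcription. None of the 7 genes shares exon bases with another gene in GENCODE vM21.

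The 7 genes lie in 2 clusters on different chromosomes. The sequences before their start sites are shown as a description, and a link between these sequences and the levels was not tested. The promoter of 6 members, *Hbb-y*, *Hbb-bs*, *Hbb-bt*, *Hba-x*, *Hba-a1* and *Hba-a2*, was matched in the RefSeq promoter table of GRCm38.p6. The sequences below run 5′ to 3′ on the strand of the gene, with matches to 4 motifs in capitals, which are named in the next paragraph. The first 2 are an embryonic and an adult gene, shown up to the nearest annotated exon, and the other 3 are stretches of 30 bases around the motifs. Of these 30 bases, 30 in *Hba-x* and 10 each in *Hbb-bs* and *Hbb-bt* lie in annotated exons, since other annotated transcripts start further upstream than the RefSeq start used here.

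*Hbb-y*, chr7:103853217-103853337, minus strand: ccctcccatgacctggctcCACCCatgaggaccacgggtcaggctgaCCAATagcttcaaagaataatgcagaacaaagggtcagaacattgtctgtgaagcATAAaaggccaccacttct
*Hba-a2*, chr11:32296362-32296488, plus strand: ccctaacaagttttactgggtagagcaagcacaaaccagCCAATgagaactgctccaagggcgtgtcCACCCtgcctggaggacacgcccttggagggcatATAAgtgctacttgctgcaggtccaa
*Hbb-bs*, chr7:103827992-103828021, minus strand: ccaCACCCtggtaagggCCAATctgctcac
*Hbb-bt*, chr7:103813987-103814016, minus strand: gtaaCACCCtggcATTGGCCAATctgctca
*Hba-x*, chr11:32276490-32276519, plus strand: tctGATAAcaggctcCACCCtgcaagcccc

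CACCC is the core of the sites of KLF factors such as KLF1, GATAA holds the core of GATA1 sites, CCAAT is the CCAAT box, and ATAA belongs to TATA boxes. The first 3 were searched on both strands over the 250 bases before the start, and ATAA only on the gene's strand from 35 to 20 bases before it. The letters ATAA are contained in GATAA, so a GATAA on the gene's strand at that distance counts for both. In the 6 globin promoters each GATAA match lay further from the start. Matches can also overlap or abut, as the CCAAT and its reverse complement ATTGG do in *Hbb-bt*. A CACCC was present in 6 of 6 globin promoters against 52.0% of 32851 promoters in the table. A GATAA was present in 6 of 6 against 22.6%, and an ATAA at this distance in 6 of 6 against 6.32%. A CCAAT was present in 5 of 6 against 33.8%, and the gene without a match in this window was *Hba-x*. All 4 motifs together were found in 5 of 6 globin promoters and in 0.435% of all promoters. The *Hba-a1* and *Hba-a2* promoters were identical over 297 aligned bases, so the 6 promoters are not separate cases, and these shares were not tested. These matches describe letters in a window and do not show that a factor was bound.

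**Figure D1:**
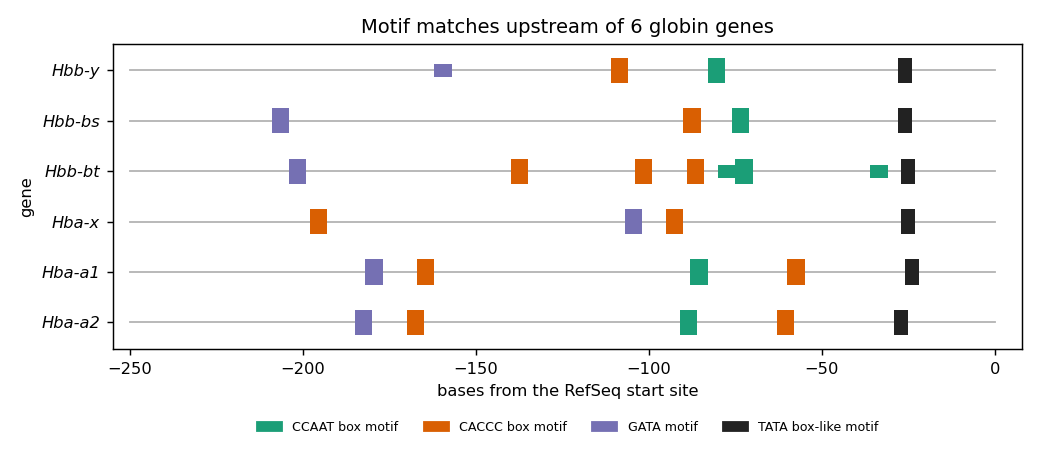
Matches to 4 motifs in the 250 bases before the RefSeq start site of 6 globin genes, with distance from the start in bases on the x axis and 1 row per gene. Tall boxes are matches on the strand of the gene and short boxes are matches on the opposite strand. Each gene has an ATAA match close to the start and at least 1 CACCC and 1 GATAA match.

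Library depth and quality were as follows. The deposited values are FPKM, fragments per kilobase of exon scaled to library size, which are scaled by gene length and can be compared between genes. Reads recovered from the FPKM came to between 17140887 and 24624444 per library on the listed genes, and between 3833 and 947474 reads stood behind each globin value. *Hnrnpk*, the deleted gene, had an FPKM of 193, 195 and 185 in replicates 1, 2 and 3 of WT and of 127, 142 and 135 in those of CKO. The groups did not overlap, as was the case for 14.5% of all 12305 genes tested. Its limma adjusted *p* value was 0.334 over all 6 libraries, 0.0575 with the replicate number as a block and 0.0377 with replicates 2 and 3 alone. Replicate 1 of both groups stood apart from replicates 2 and 3 on the first principal component (52.6% of the variance), and results are therefore also given for replicates 2 and 3 alone, a choice made after the data were seen. The FPKM of CKO replicates 2 and 3 were divided by library sizes that are smaller than the reads on the listed genes. These reads were 1.11 and 1.03 times those sizes (0.947 to 0.968 times in the other 4 libraries). FPKM folds that involve CKO replicates 2 and 3 carry that scaling while shares of reads and ratios of globins do not. The log2 fold change of *Hbb-y* was 0.51 as deposited and 0.52 with each library scaled by its median ratio over genes. It was 0.40 with an equal sum over genes that are not globins. In bulk tissue, fewer red cells and less globin RNA per red cell cannot be told apart.

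The embryonic genes *Hbb-y*, *Hbb-bh1* and *Hba-x* ranked 1, 2 and 3 of all 22040 genes by FPKM in each of the 6 libraries. *Hba-a1* ranked between 5 and 8, *Hbb-bs* between 9 and 13, *Hba-a2* between 18 and 42 and *Hbb-bt* between 17 and 73. Among the globins the order *Hbb-y*, *Hbb-bh1*, *Hba-x*, *Hba-a1*, *Hbb-bs* held in each library, while *Hbb-bt* and *Hba-a2* exchanged the last places. The red cell label of these transcripts was checked against other red cell genes, and *Alas2*, *Slc4a1*, *Hemgn*, *Klf1* and *Gata1* were all detected in each library, with FPKM from 10.4 for *Gata1* to 391 for *Alas2*.

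*Hbb-y*, the embryonic εy globin, had an FPKM of 14198, 31035 and 31698 in replicates 1, 2 and 3 of WT limb buds and of 12266, 78176 and 41794 in those of CKO limb buds. The low libraries were replicate 1 of both groups and the highest was CKO replicate 2, so the groups overlapped. WT had a mean of 25644 ± 9918 and CKO of 44079 ± 33014 (SD, n = 3 each), a 1.72-fold higher mean within a 6.37-fold range over the 6 libraries. The log2 fold change was 0.51 over all libraries and, when any single library was dropped, lay between -0.09 (without CKO replicate 2) and 1.25 (without CKO replicate 1).

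*Hbb-bh1*, the embryonic βH1 globin, had an FPKM of 10079, 13673 and 14741 in WT and of 7326, 28780 and 17495 in CKO replicates 1, 2 and 3. It followed *Hbb-y* closely (Pearson's r = 0.98 of log2 FPKM over 6 libraries, which share their library scaling), with a smaller range of 3.93-fold. The ratio of *Hbb-y* to *Hbb-bh1* was 1.41, 2.27 and 2.15 in WT and 1.67, 2.72 and 2.39 in CKO. It was lowest in replicate 1 of each group and 1.11 to 1.20 times higher in CKO than in the WT library of the same number, but its values in the groups overlapped.

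*Hba-x*, the embryonic ζ globin, had an FPKM of 8268, 10852 and 10279 in WT and of 6920, 19739 and 15481 in CKO replicates 1, 2 and 3. CKO replicates 2 and 3 were above all WT libraries and CKO replicate 1 was below them. WT had a mean of 9800 ± 1357 and CKO of 14046 ± 6529 (SD, n = 3 each).

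Of the adult α-like genes, *Hba-a1* had an FPKM of 2308, 4130 and 4155 in WT and of 1841, 9350 and 5667 in CKO replicates 1, 2 and 3. *Hba-a2* had an FPKM of 533, 1063 and 667 in WT and of 553, 1695 and 1263 in CKO. Both genes encode the adult α chain, and *Hba-a1* was 3.33 to 6.23 times *Hba-a2* in the 6 libraries. This split is uncertain, since the transcripts differed at 1 of 538 aligned bases. Of all windows of 100 bases, 56.5% of those in the *Hba-a1* transcript and 74.5% of those in the *Hba-a2* transcript were also in the other. How reads that match both genes were counted is not given in the sources used here, so the sum of the pair is the safer value.

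Of the adult β-like genes, *Hbb-bs* had an FPKM of 1861, 1491 and 1419 in WT and of 1403, 2856 and 2042 in CKO replicates 1, 2 and 3. *Hbb-bt* had an FPKM of 302, 764 and 748 in WT and of 333, 1768 and 1371 in CKO. The pair moved differently: WT replicate 1 held the highest *Hbb-bs* and the lowest *Hbb-bt* of the WT libraries, and the ratio of *Hbb-bt* to *Hbb-bs* was 0.162 and 0.238 in WT and CKO replicate 1 against 0.513 to 0.671 in the other 4 libraries. *Hbb-bs* had a Pearson's r between 0.643 and 0.813 with the other members over 6 libraries, while the pairs without it lay between 0.893 and 0.998. The transcripts of this pair were 92.7% identical, and 54.8% of the 100-base windows of *Hbb-bt* and 62.6% of those of *Hbb-bs* were in the other, so this split carries the same uncertainty. No window of 50, 100 or 150 bases of *Hbb-y*, *Hbb-bh1* or *Hba-x* was found in a transcript of another gene.

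**Figure D2:**
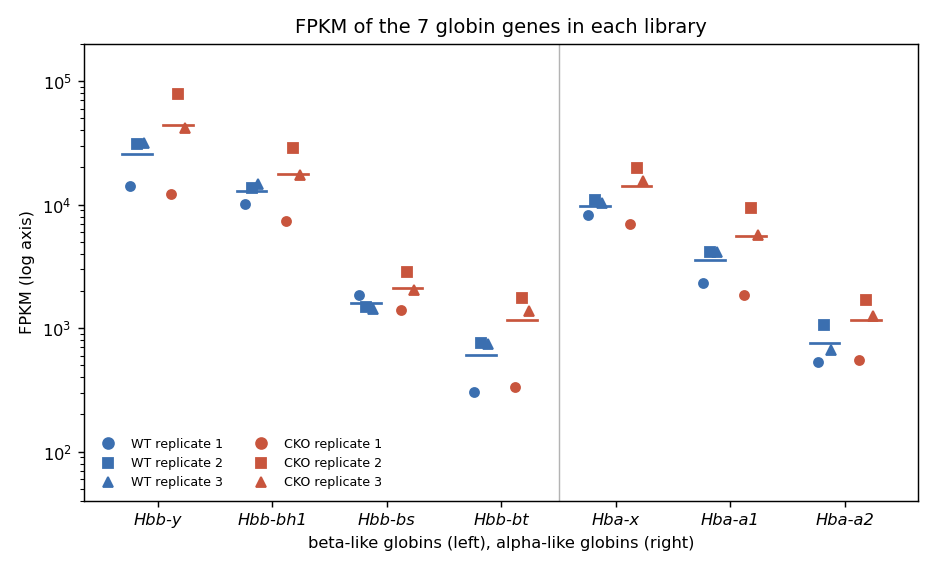
FPKM of each globin gene on a log axis, with 1 point per library, WT in blue and CKO in red, the replicate number as the point shape and the group mean (n = 3) as a bar. The values of the groups overlap for each gene, CKO replicate 2 is the highest library for each gene and CKO replicate 1 is among the lowest.

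Compared by group, the mean was higher in CKO for 7 of 7 globin genes, by 1.32-fold to 1.91-fold, but 0 of 7 had values that did not overlap between WT and CKO. Among all 12305 genes tested, 14.5% did not overlap. CKO replicate 2 was the highest of the 6 libraries for 7 of 7 genes and CKO replicate 1 the lowest for 5 of 7. Between the libraries numbered 1, the ratio of CKO to WT was 0.727 to 1.10 and above 1 for 2 of 7 genes. Between those numbered 2 it was 1.59 to 2.52, and between those numbered 3 it was 1.19 to 1.89, above 1 for 7 of 7 genes in both. The sign thus depended on the number for *Hbb-y*, *Hbb-bh1*, *Hbb-bs*, *Hba-x* and *Hba-a1*, though the labels do not say what a shared number stands for. Dropping CKO replicate 2 also turned the log2 fold change of *Hbb-bh1* to -0.16 and that of *Hba-a1* to -0.08. With replicates 2 and 3 alone, the log2 fold change of the 7 genes was 0.66 (*Hbb-bh1*) to 1.04 (*Hbb-bt*).

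As a share of the summed FPKM, the 7 globins made up 13.7%, 19.5% and 20.6% in replicates 1, 2 and 3 of WT and 11.7%, 32.4% and 23.5% in those of CKO. The mean share was 17.9% ± 3.69 for WT and 22.6% ± 10.4 for CKO (SD, n = 3 each), with a log2 difference of 0.23 and a pooled SD of 0.58. This difference was -0.09 without CKO replicate 2, 0.65 without CKO replicate 1 and 0.47 with replicates 2 and 3 alone. As a share of reads, which does not weight short genes, the globins made up 2.80%, 4.54% and 4.62% in WT and 2.31%, 8.84% and 5.78% in CKO. The 95% Wilson intervals of these shares of reads were at most 0.0242 percentage points wide and cover counting error only, since reads were not counted by molecule. The groups overlapped on both scales.

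The embryonic genes made up between 86.5% and 89.0% of the globin FPKM in the 6 libraries. *Hbb-y* alone made up 37.8% to 54.9% and *Hba-x* 13.9% to 22.6%. These shares moved in opposite directions, with that of *Hbb-y* lowest and that of *Hba-x* highest in replicate 1 of both groups. Shares of a fixed total are bound to each other, and the levels of *Hbb-y* and *Hba-x* rose together (Pearson's r = 0.97 of log2 FPKM). *Hba-a1* kept to a narrow band of 6.01% to 6.66%.

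**Figure D3:**
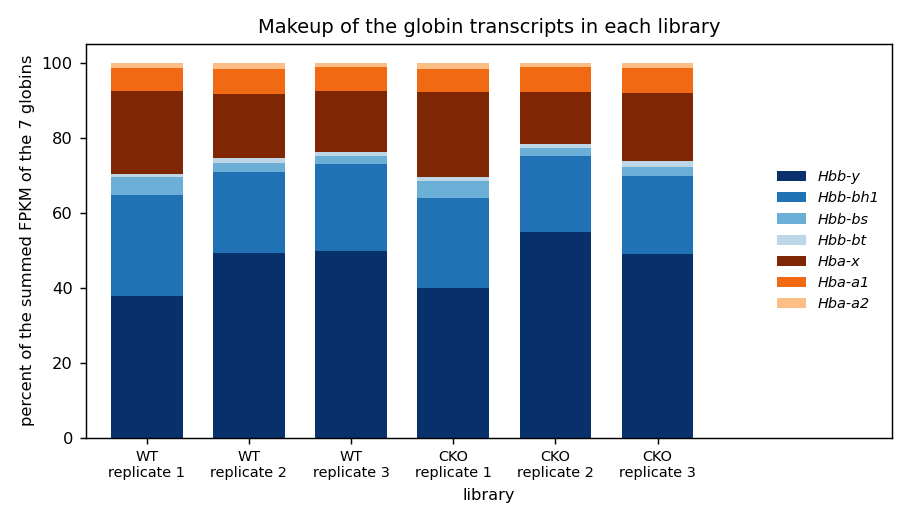
Share of each globin gene in the summed FPKM of the 7 globins, in percent, with 1 stacked bar per library. *Hbb-y*, *Hbb-bh1* and *Hba-x* together make up 86.5% to 89.0% of each bar, and the *Hbb-y* segment is smallest in WT replicate 1 (37.8%) and largest in CKO replicate 2 (54.9%).

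The ratio of embryonic to adult β-like globin FPKM, (*Hbb-y* + *Hbb-bh1*) over (*Hbb-bs* + *Hbb-bt*), was 11.2, 19.8 and 21.4 in replicates 1, 2 and 3 of WT and 11.3, 23.1 and 17.4 in those of CKO. Its mean was 17.5 ± 5.49 for WT and 17.3 ± 5.92 for CKO (SD, n = 3 each), a log2 difference of -0.02 against a pooled SD of 0.52. Within each number, the CKO ratio was 1.01, 1.17 and 0.811 times the WT ratio. The low values belonged to replicate 1 of both groups, and the difference between the group means was smaller than the spread within either group.

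The ratio of embryonic to adult α-like globin FPKM, *Hba-x* over (*Hba-a1* + *Hba-a2*), was 2.91, 2.09 and 2.13 in WT and 2.89, 1.79 and 2.23 in CKO replicates 1, 2 and 3. Its mean was 2.38 ± 0.462 for WT and 2.30 ± 0.555 for CKO (SD, n = 3 each), a log2 difference of -0.06 against a pooled SD of 0.31. Here replicate 1 of both groups held the high values, opposite to the β-like ratio. Across the 6 libraries, log2 of the β-like ratio rose with log2 of the summed globin FPKM (Pearson's r = 0.87). Log2 of the α-like ratio fell with this sum (r = -0.93). Both are a description of 6 points of which 2, the libraries numbered 1, hold the low end. The genes of each ratio are also part of the sum, so the ratios and the sum are not independent.

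The ratio of α-like to β-like FPKM was 0.420, 0.342 and 0.311 in WT and 0.437, 0.276 and 0.357 in CKO replicates 1, 2 and 3. Its mean was 0.358 ± 0.0564 for WT and 0.357 ± 0.0804 for CKO (SD, n = 3 each). The embryonic genes alone had a ratio of 0.185 to 0.353 and the adult genes alone of 1.31 to 2.39, so β-like FPKM exceeded α-like FPKM among the embryonic genes and the reverse held among the adult genes in each library. With replicates 2 and 3 alone, the log2 difference between CKO and WT was -0.04 for the embryonic to adult β-like ratio, -0.08 for the α-like ratio and -0.05 for the α-like to β-like ratio. With 1 library left out at a time these differences took both signs, from -0.32 to 0.25, -0.23 to 0.11 and -0.18 to 0.16.

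**Figure D4:**
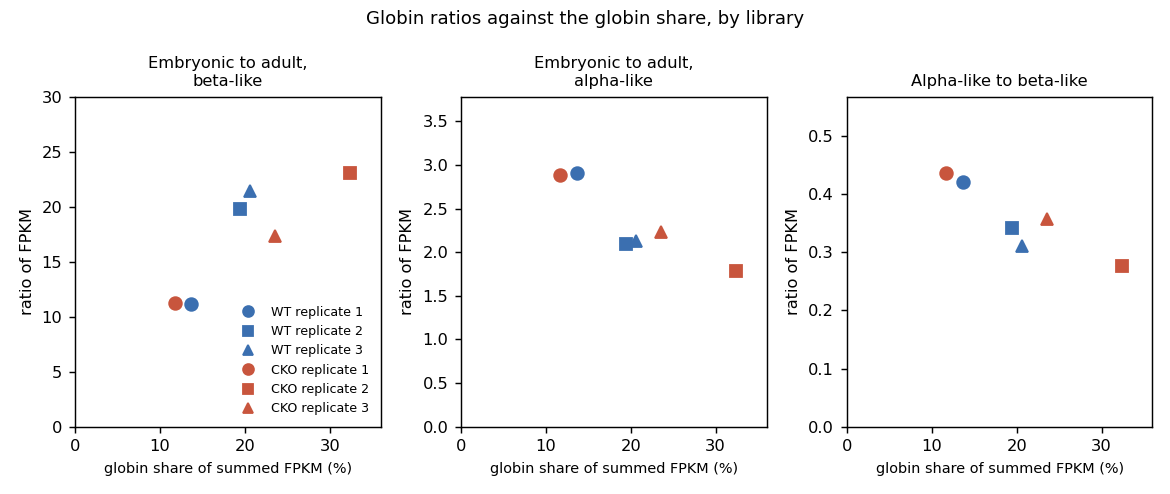
Ratio of embryonic to adult β-like globin FPKM (left), of embryonic to adult α-like globin FPKM (middle) and of α-like to β-like globin FPKM (right) against the globin share of the summed FPKM in percent, with 1 point per library, WT in blue and CKO in red. Replicate 1 of WT and of CKO lie together at the low end of the share in each panel, with β-like ratios of 11.2 and 11.3 and α-like ratios of 2.91 and 2.89.

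Other genes of the globin family were low. *Hbq1b*, a θ globin gene of the α cluster, had an FPKM of 9.18, 16.3 and 16.6 in WT and of 8.08, 30.3 and 23.1 in CKO replicates 1, 2 and 3, lowest in CKO replicate 1 and highest in CKO replicate 2. *Hbb-bh2*, in the β cluster, lay between 2.25 and 2.87 and *Hbq1a* between 0.276 and 1.04. *Cygb* (cytoglobin) lay between 1.08 and 1.25 in WT and between 0.830 and 0.986 in CKO, without overlap (limma log2 fold change -0.31, standard error 0.17, adjusted *p* = 0.704). *Ngb* (neuroglobin) and *Mb* (myoglobin) were below 0.3 in each library, and *Mb* was listed at 0 in replicate 1 of both groups.

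Whether genes on 6 erythroid lists, outside the globins, differed between WT and CKO was tested in limma over all 12305 genes whose FPKM averaged at least 0.5. The lists were set by function, and whether each gene was expressed only in red cells was not tested. *Ppox* and *Alas1*, for example, had a Pearson's r of -0.19 and 0.16 with the globin sum. Of 89 genes on 6 erythroid lists that were in the table, 84 were tested and 0 had an adjusted *p* value under 0.05 (limma), against 0.0650% of all genes tested. *Hnrnpk*, the deleted gene, was not called in this fit either (limma adjusted *p* = 0.334). A count of 0 therefore does not show that these genes were unchanged. Before adjustment, 4 of 84 were under 0.05, against 1022 of 12305 genes. These 4 genes, named after their values were seen, were *Steap3*, *Sptb*, *Ank1* and *Fhdc1*, each with a higher mean in CKO. The median log2 fold change of the 84 genes was 0.23 and 69 of 84 were above 0, while the median over all genes was 0.00. Without CKO replicate 2 the median of the 84 genes was 0.08, with 59 above 0, and without CKO replicate 1 it was 0.40, with 66 above 0. When the FPKM were rescaled to an equal sum over genes that are not globins, the median was 0.12 for the 84 genes and -0.10 for all genes.

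By function, 12 of 13 haem synthesis genes, 7 of 7 iron uptake genes, 18 of 18 membrane genes, 14 of 14 genes of the cytoplasm and of maturation, and 4 of 5 genes that handle haem or globin had a log2 fold change above 0, with medians of 0.28, 0.22, 0.38, 0.38 and 0.08. Among 27 regulators of globin genes, 14 were above 0 and the median was 0.00. None of these lists held a gene that passed the adjusted threshold (limma, 0 in each, with at most 2 at an unadjusted *p* value under 0.05 in a list).

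*Alas2*, the erythroid enzyme of the first step of haem synthesis, had an FPKM of 175, 193 and 207 in WT and of 140, 391 and 279 in CKO replicates 1, 2 and 3 (log2 fold change 0.37, standard error 0.34, limma adjusted *p* = 0.838). *Slc4a1*, the band 3 anion exchanger, had 179, 189 and 213 in WT and 167, 384 and 290 in CKO (limma adjusted *p* = 0.746). In both of them CKO replicate 1 was the lowest and CKO replicate 2 the highest library, as for *Hbb-y*.

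*Hemgn*, a nuclear protein of red cell precursors, averaged 94.0 ± 12.3 for WT and 141 ± 61.4 for CKO (SD, n = 3 each). *Sptb*, erythroid β spectrin, averaged 19.7 ± 3.37 for WT and 29.0 ± 4.52 for CKO (SD, n = 3 each), without overlap (log2 fold change 0.56, standard error 0.17, limma adjusted *p* = 0.430). It had the smallest adjusted *p* value of the erythroid genes. *Ank1* (ankyrin) and *Zbtb7a*, a repressor of globin genes, were likewise higher in CKO without overlap, and *Myb* was lower, which makes 4 of 84 against 14.5% of all genes. These 4 genes were also named after their values were seen.

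Among the regulators, *Klf1*, the activator that binds CACCC sites, had an FPKM of 33.0, 29.7 and 32.9 in WT and of 24.0, 55.2 and 39.6 in CKO replicates 1, 2 and 3 (limma adjusted *p* = 0.872). *Gata1*, the factor of GATA sites, had 14.2, 11.5 and 12.6 in WT and 10.4, 18.6 and 17.5 in CKO (limma adjusted *p* = 0.843). Both overlapped between groups, with CKO replicate 1 lowest and CKO replicate 2 highest. *Bcl11a*, which represses embryonic globin genes in definitive cells, had 9.72, 9.78 and 10.8 in WT and 12.3, 8.26 and 8.80 in CKO, in the opposite order (limma adjusted *p* = 0.945). The libraries are bulk tissue, and which cells expressed these regulators was not tested. *Epor*, the erythropoietin receptor, varied little, from 14.9 to 20.1 over the 6 libraries.

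By replicate number, the median log2 difference of the 84 erythroid genes was -0.13 between the libraries numbered 1, 0.58 between those numbered 2 and 0.29 between those numbered 3, with 19, 67 and 73 of 84 higher in CKO. The medians over all genes were -0.01, 0.00 and 0.00. The erythroid genes outside the globins thus differed by number in the same order as the globins, and with 1 library per group a difference between numbers could not be tested. With the replicate number as a block in limma, 0 of 84 passed the adjusted threshold, against 2.81% of all genes tested. Before adjustment, 26 of 84 were under 0.05 in this fit, against 2263 of 12305 genes. With replicates 2 and 3 alone, 44 of 84 were higher and 3 lower at an adjusted *p* value under 0.05 (limma), against 7.05% of all genes higher and 8% lower. The 3 lower genes, named after their values were seen, were the regulators *Klf2*, *Nfix* and *Sox6*, and the cells that expressed them were not resolved in bulk tissue. Without any single library, 0 of 84 passed the adjusted threshold.

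**Figure D5:**
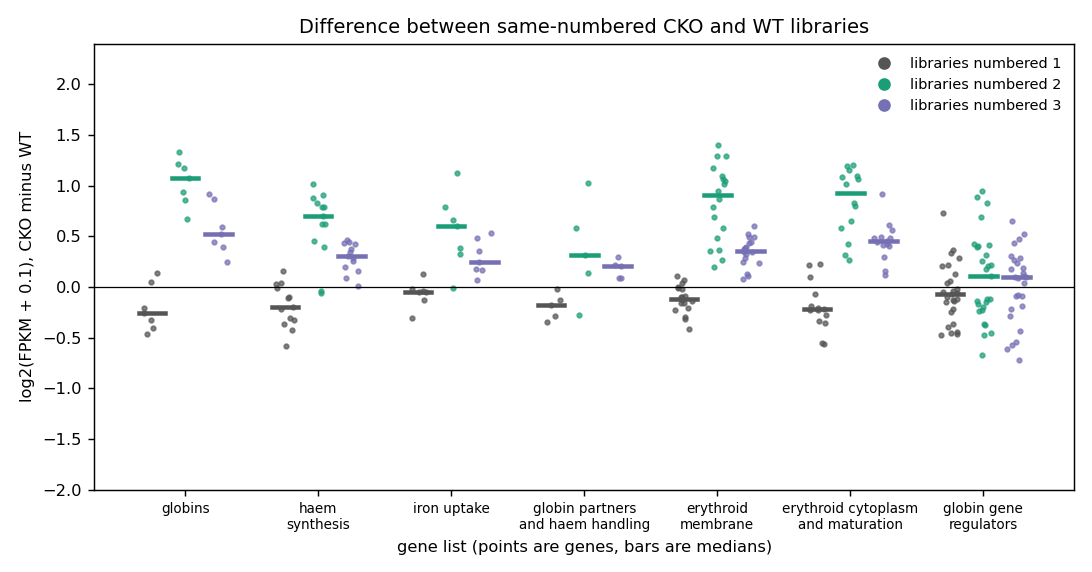
Difference in log2(FPKM + 0.1) between the CKO and the WT library of the same replicate number for the 7 globins and 6 erythroid gene lists, with 1 point per gene and a bar at the median. Points above 0 are higher in CKO. The medians of the globins and of each list are below 0 for the libraries numbered 1 and above 0 for those numbered 2 and 3.

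Markers of other cell types were set beside the globin values. The summed FPKM of 12 endothelial markers was 40.2 to 54.8 across WT and 27.8 to 39.6 across CKO libraries. That of 12 macrophage markers was 39.7 to 51.4 and 38.7 to 72.8, and that of 10 platelet and megakaryocyte markers 24.3 to 34.1 and 15.3 to 37.6, in the same order. The 16 limb mesenchyme markers, which check the labelled tissue, summed to 586 to 694 in WT and 569 to 644 in CKO. CKO replicate 1 held the lowest and CKO replicate 2 the highest sum of the macrophage and platelet markers, as for the globins. The endothelial sums went the other way, lower in CKO without overlap. Of the 11 tested endothelial markers, 0 had a log2 fold change above 0 and 0 passed the adjusted threshold (limma). The part of all these markers in the globin values was not tested.

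Over the 6 libraries, 10.8% of tested genes had a Pearson's r over 0.9 between their log2(FPKM + 0.1) and log2 of the summed globin FPKM, and 7.22% had an r under -0.9, so likeness to the globins was common in these libraries. The 10 genes with the highest r (at least 0.996, n = 6) were *Psmd5*, *Zfp874a*, *Uqcrc2*, *March2*, *Tprgl*, *Ube2l6*, *Ctsb*, *Exoc3*, *Dld* and *Aqp8*, of which 1, *Ube2l6*, is on the erythroid lists. *Aqp8* had an FPKM of 1.96, 4.36 and 4.50 in WT and of 1.43, 11.5 and 6.71 in CKO replicates 1, 2 and 3, an 8.02-fold range. *Exoc3* had a 1.48-fold range. The median r with the globin sum was 0.87 over the 57 tested genes of the 5 erythroid lists without the regulators and -0.62 over the 27 regulators. The regulators went both ways, and 3 of 27 had an r over 0.9. For comparison, the median r was -0.27 over the 16 limb mesenchyme markers, and which cells expressed the regulators was not tested. Of the fixed examples, *Klf1* had an r of 0.90, *Gata1* of 0.78 and *Bcl11a* of -0.83.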

How the data were processed

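RNA-seq of 3 WT and 3 CKO replicates was used, and samples of the other assays (Hi-C, CUT&RUN and ATAC-seq) were not analysed here. The authors deposited 1 table of FPKM per gene and library. The submitters' processing notes list mm10 and, without roles, cutadapt 2.5, HISAT2 2.1.0, Bowtie2 2.11.1, featureCounts 1.6.3 and MACS2 2.1.2. Read length, strand setting and the treatment of multi-mapped reads are not given in the sources used here. Of the identifiers, 99.5% were in GENCODE vM21, and FPKM times merged exon length gave whole reads within 0.1 for 94.2% to 94.7% of low values per library. Genes averaging at least 0.5 FPKM were compared with limma 3.58.1 (R 4.3.3, trend) on log2(FPKM + 0.1), a scale that understates changes of low genes, with Benjamini-Hochberg adjustment over all 12305 genes. The labels do not say whether replicates are separate embryos, so *p* values measure the spread between these libraries.

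Members and gene lists were chosen with earlier results of these data known. Named with values were *Hnrnpk*, the members, the other globin family genes, fixed examples of the erythroid lists (*Alas2*, *Hemgn*, *Slc4a1*, *Klf1*, *Gata1*, *Bcl11a* and *Epor*), list genes past the adjusted threshold and the 10 genes most like the globin sum, and other genes are said to be named after their values were seen. Some list genes are not reported here by name. The remaining marker lists (limb ectoderm, muscle precursor, neural crest and Schwann cells) had summed FPKM of 51.1 to 84.0, 18.5 to 32.9 and 5.77 to 13.7 in WT and of 56.7 to 87.2, 31.1 to 39.1 and 11.1 to 13.7 in CKO. Same-numbered libraries had deviations from their group means that correlated across genes at 0.64, 0.44 and 0.27. Each exceeded 0.1, and same-numbered libraries were therefore compared and the number was used as the block of an alternative limma fit. This pairing was inferred from these data, and the labels do not say what a shared replicate number stands for. The main limma fit and the fit of replicates 2 and 3 alone had no block, so their *p* values are not paired. Alternatives were other pseudocounts, filters and scalings, no trend, the replicate block, the study's thresholds, each library left out, reads or other lengths in place of FPKM, and single genes in the ratios. Scripts were tested on simulated data. Alignments used Biopython 1.88 in Python 3.11.15.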

Additional observations from a re-analysis of the deposited data

How the results depend on the processing

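The count of genes past the adjusted threshold, 8 (7 higher and 1 lower in CKO), was 4 with an equal sum over genes that are not globins. At the study's thresholds, which are a fold change and an unadjusted *p* value (limma here), the count was 82 (52 and 30). The adjusted count was 1 to 23 with each library left out. It was 23 when CKO replicate 1 was dropped, 7 and 3 when WT replicates 1 and 2 were, and 1 when any of the other 3 libraries was. With the replicate block it was 346 (139 and 207), and with replicates 2 and 3 alone 1851 (867 and 984). The erythroid count, 0, was 0 under each other alternative, the replicate block included, but 47 (44 and 3) with replicates 2 and 3 alone. The cause of these changes was not tested. Without CKO replicate 2 the log2 difference turned negative for *Hbb-y* (-0.09), *Hbb-bh1* (-0.16), *Hba-a1* (-0.08) and the globin share (-0.09). At least 3833 reads stood behind each globin value, and the splits within the adult pairs depend on how shared reads were assigned.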
